A study of Homo sapiens with 2 samples.

Results

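NOD1, NOD2 and TLR3 encode sensors of microbes, and MYD88 encodes a signalling adaptor that other sensors use. Sites near these 4 genes bound by IRF1, an interferon-induced transcription factor, were described from chromatin immunoprecipitation followed by sequencing (ChIP-seq). The members were all summits, the single-base positions of highest signal in a called peak, whose nearest gene in the deposited list was 1 of these 4 genes, at any distance. They numbered 6 of 1986 summits. The cells were NB4, an established human line of acute promyelocytic leukemia with the PML-RARA fusion. There was 1 library of cells that had received all-trans retinoic acid (ATRA), a differentiating drug, for 4 hours, and 1 of control cells, which per the labels were given the solvent DMSO for the same time. The deposited list carries the name of the ATRA library, the DMSO library was not analysed here, and no change under treatment could be measured.

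NOD1 and NOD2 are cytosolic receptors for fragments of the bacterial cell wall, and both signal through the kinase RIPK2 to NF-kB. TLR3 is an endosomal receptor for double-stranded RNA that signals through the adaptor TICAM1. MYD88 is the adaptor that most other Toll-like receptors and the interleukin-1 receptors use, and TLR3 does not need it. IRF1 belongs to a family whose members bind repeats of the letters GAAA, the core of the interferon-stimulated response element.

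The sequences under the promoter summits of TLR3, MYD88 and NOD1 are shown because an IRF-type motif lay next to the summit in TLR3 and MYD88 and was not found in the NOD1 window. For NOD1 this is the summit nearest the TSS, the lowest-scoring of its 3; the sequences under its outer promoter and intronic summits were not used here. The stretches come from RefSeq promoter windows of GRCh38.p14, which run from 250 bases before to 50 bases after an annotated start. Capitals mark a motif of the IRF family on either strand, namely GAAA, any 2 bases, and GAAA again (TTTC, any 2 bases, and TTTC on the other strand). The TLR3 stretch is chr4:186069035-186069184 on the plus strand, with the summit at base 138 of 150. The NOD1 stretch is chr7:30478785-30478934 on the minus strand, with the summit at base 80 of 150. The MYD88 stretch is chr3:38138599-38138628 on the plus strand, with the summit at base 29 of 30.
TLR3: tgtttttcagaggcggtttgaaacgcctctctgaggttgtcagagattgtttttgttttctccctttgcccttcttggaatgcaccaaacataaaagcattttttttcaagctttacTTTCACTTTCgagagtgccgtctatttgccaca
NOD1: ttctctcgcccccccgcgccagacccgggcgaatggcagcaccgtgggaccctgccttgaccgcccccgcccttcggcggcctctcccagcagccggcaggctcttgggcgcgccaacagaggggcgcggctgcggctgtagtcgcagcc
MYD88: gGAAAGCGAAAgccggcggggcggggcggg

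The 6 summits spread over most of the list. By the authors' peak score, whose scale the file headers do not state, they lay between 14.4 at TLR3 and 96.5 in an intron of NOD1, with a median of 34.6. Over all 1986 summits the median score was 25.2, the quartiles were 17.7 and 44.0, and the extremes 8.28 and 321. Of the 6 summits, 4 were above the list's median and 2 below it. The intronic summit of NOD1 was above the upper quartile of the list, and that of TLR3 below the lower quartile. By class, 3 summits were annotated as promoter, 2 as intron and 1 as 5′ UTR, and 5 of the 6 lay outside annotated repeats. With 1 library there is no spread between replicates, and the reads behind each summit are not known.

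**Figure D1:**
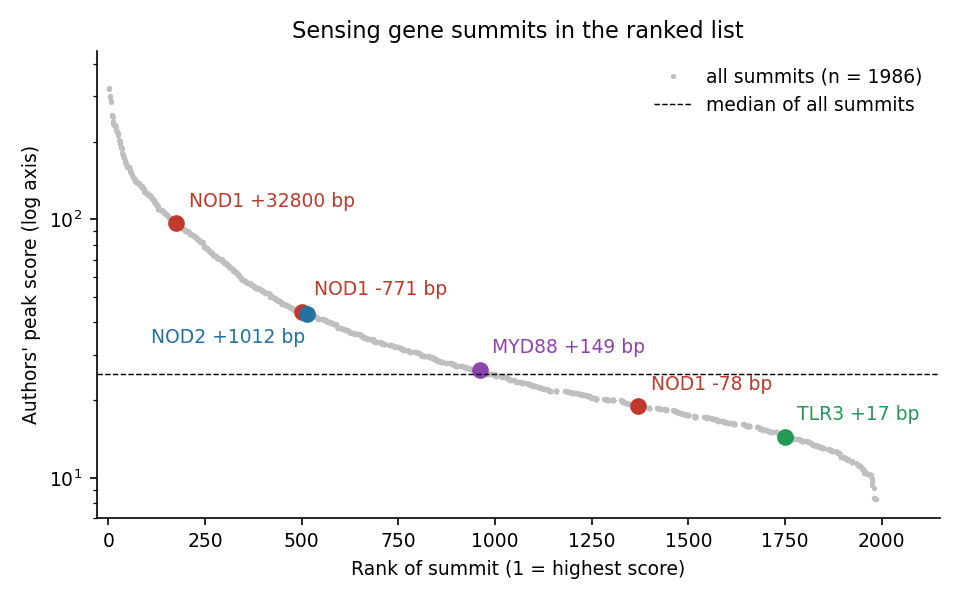
Authors' peak score (log axis) against the rank of each of the 1986 summits, with the 6 summits of NOD1, NOD2, TLR3 and MYD88 marked by their signed distance to the TSS in bp. The marked summits run from rank 175 (NOD1, intron) to rank 1749 (TLR3), and the dashed line is the median of 25.2.

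NOD1, the sensor of diaminopimelic acid peptides, had 3 summits, and the other members had 1 each. The one with the highest score was not at the promoter. It lay at chromosome 7 position 30445977, 32800 bp downstream of the transcription start site (TSS), in intron 9 of 13, with a score of 96.5. Another lay 771 bp upstream of the TSS, at position 30479548, with a score of 44.0. The third lay 78 bp upstream, at position 30478855, with a score of 18.9. The intronic summit ranked 175 in the list, the outer promoter summit 500 and the one next to the TSS 1370.

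The promoter pair of NOD1 was 693 bp apart, and the intronic summit was 32.9 kb from the nearer of them. With summits at most 1 kb apart put together, NOD1 had 2 separate groups. The intronic summit fell at 60.5% of the RefSeq gene span (chromosome 7, 30424527 to 30478784) counted from its 5′ end. Both promoter summits lay outside that span, by 71 and 764 bp.

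Several summits at 1 gene were uncommon in the list. Of the 1275 protein-coding genes that were the nearest gene of any summit, 1134 had a single one, 141 had at least 2 and 20 had at least 3 (1.57%), NOD1 being one of these 20. Of the 405 genes with a summit within 1 kb of the TSS, 28 had at least 2 there (6.91%), NOD1 among them. Counted separately, with overlap, 24 genes had a summit within 1 kb and another beyond 10 kb, and in 14 of them, NOD1 included, the highest score was at a distant summit. Outside a dense block of 133 summits on chromosome 21, 65 of 1830 gaps between neighbouring summits were at most 1 kb.

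**Figure D2:**
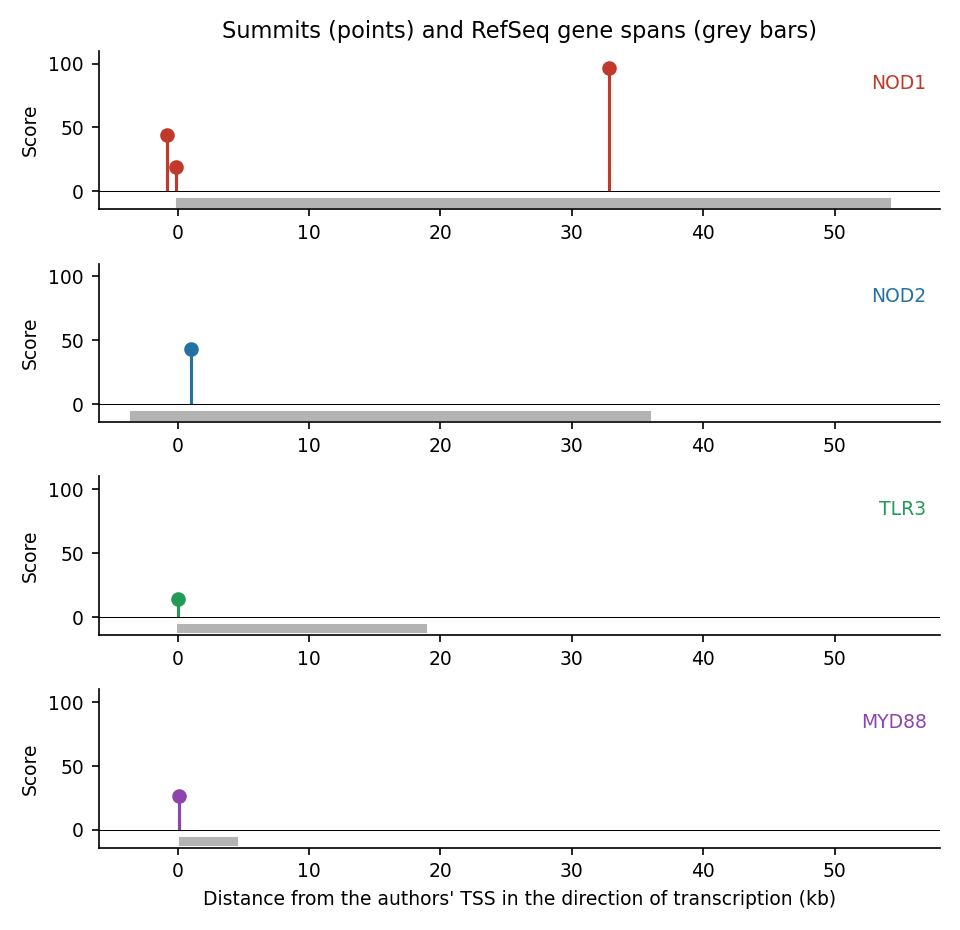
Score of each summit (vertical axis, the authors' peak score) by its distance from the authors' TSS in the direction of transcription (kb), 1 row per gene, with grey bars for the RefSeq gene span. NOD1 shows a promoter pair and the distant intronic summit of 96.5, whereas NOD2, TLR3 and MYD88 each show 1 summit near the start.

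The intronic summit of NOD1 was also the only one of the 6 inside an annotated repeat, an L1MB2 element, which is a remnant of a LINE-1 retrotransposon. L1MB2 was the most frequent LINE name in the list, with 19 summits on 13 chromosomes, of which 12 were intronic and 7 intergenic. How common L1MB2 is in the genome was not counted, so this number shows no preference for it. NOD1 had the highest score of these 19, followed by 58.1, while their median was 20.0 and the lowest 11.8. Among all 150 LINE summits, whose median was 25.2, that of NOD1 ranked 10. It ranked 4 among the 71 intronic LINE summits and 46 among all 698 intronic summits. How reads that match several repeat copies were placed is not given in the sources used here, and its part in these scores was not tested.

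**Figure D3:**
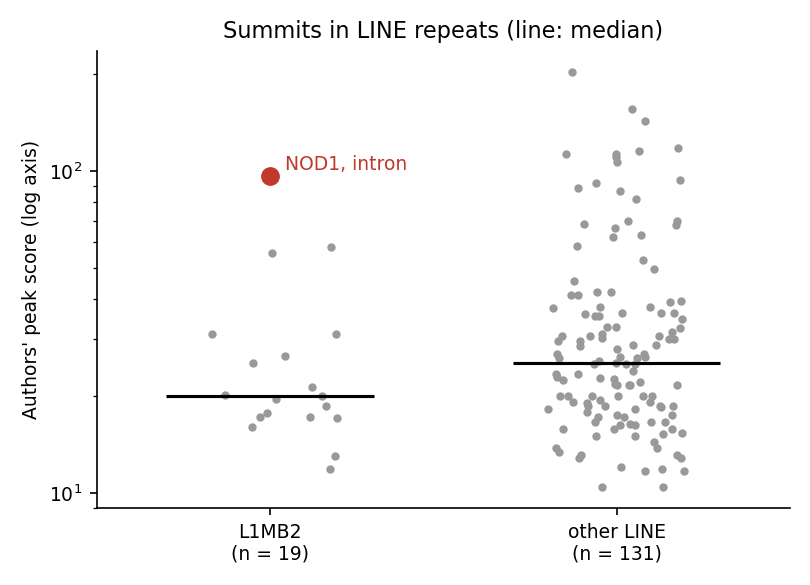
Authors' peak score (log axis) of summits in L1MB2 elements (n = 19) and in other LINE repeats (n = 131), with horizontal lines at the medians. The intronic NOD1 summit (96.5) is the highest L1MB2 summit, while other LINE repeats reach 203.

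NOD2, the sensor of muramyl dipeptide, had its summit at chromosome 16 position 50698151, in intron 1 of 11, with a score of 43.0. The authors' distance was 1012 bp downstream of the TSS, just beyond 1 kb. The RefSeq promoter table holds 2 windows for NOD2, both inside a gene span that begins farther upstream (50693606 to 50733075). The summit lay 1203 bp downstream of the start of one and 1229 bp upstream of the start of the other. It fell in neither promoter window, so no sequence under it was used here. Among the 435 summits farther than 1 kb and up to 10 kb from a TSS, 77.2% had a lower score.

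TLR3 had the summit closest to a TSS and the lowest score of the members. It lay at chromosome 4 position 186069172, 17 bp downstream of the start, with a score of 14.4. Of the 217 summits within 100 bp of a TSS, whose median score was 31.5, 15.7% scored lower. The inner promoter summit of NOD1 belonged to the same band, where 30.4% scored lower. TLR3 and the inner NOD1 summit were therefore both in the lower part of the summits at TSSs.

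MYD88 had its summit at chromosome 3 position 38138627, annotated as 5′ UTR, exon 1 of 4, with a score of 26.2. Of the 322 summits farther than 100 bp and up to 1 kb from a TSS, whose median score was 26.4, 49.4% scored lower, and for the outer promoter summit of NOD1 this share was 73.9%. The position relative to the start depended on the annotation. The authors placed the summit 149 bp downstream of a TSS, whereas the RefSeq start lies 183 bp farther downstream and puts the summit 34 bp upstream of it. For NOD1 and TLR3 the authors' and the RefSeq starts were 7 and 1 bp apart.

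**Figure D4:**
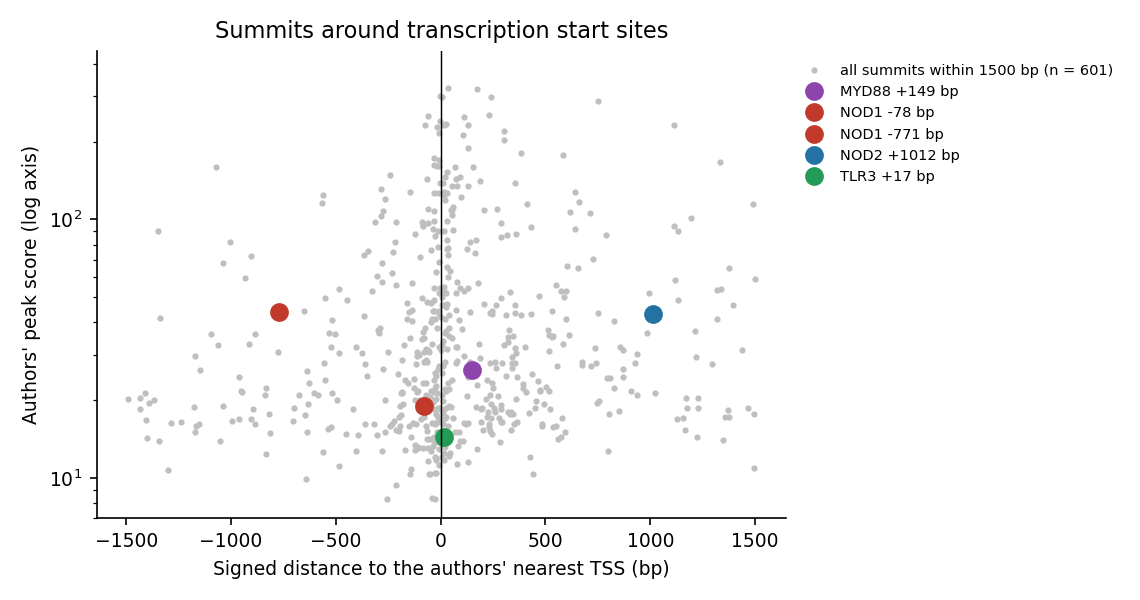
Authors' peak score (log axis) against the signed distance to the authors' nearest TSS (bp) for the 601 summits within 1500 bp, with the 5 summits of the 4 genes in this range in colour. TLR3 (17 bp, 14.4) sits at the TSS near the lower edge, and the outer NOD1 (-771 bp) and NOD2 (1012 bp) summits sit at similar scores on opposite sides.

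All 4 genes had a summit within 10 kb of the TSS, against 3.36% of 19974 protein-coding genes, and NOD1, TLR3 and MYD88 had one within 1 kb, against 2.03%. The 4 genes were taken because the list names them, so these counts are a description. Genes were also ranked by their highest score within 10 kb, the one measure of likeness that 1 library allows. NOD1 (44.0) stood between KANK1 (44.0) and EIF5B (43.8), and MYD88 between SOX13 (26.3) and SECTM1 (26.1). NOD2 shared its score with 9 other summits, among them those of GGPS1 and C2CD2, listed next to it. TLR3 shared its score with 15 others, among them those of BUB1 and KDM3B, listed next to it. The order among equal scores has no meaning.

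Among the neighbouring genes, SNX20 and ZNRF2 held a summit inside their span and the others did not. These genes are too few to set against a share of all protein-coding genes. ACAA1, which encodes a peroxisomal thiolase and whose span lies 1533 bp from that of MYD88, had none. The next summit of another gene was 812 kb from that of MYD88. The span of SNX20, a sorting nexin gene next to NOD2, held a summit in its 3′ UTR with a score of 66.2, higher than that of NOD2 and 31.2 kb from it. CYLD, the deubiquitinase gene on the other side of NOD2 and an inhibitor of NF-kB signalling, had none. FAM149A and SORBS2, on either side of TLR3, had none, and the nearest other summit, at CYP4V2, scored 77.8 at 122 kb from that of TLR3. GGCT, next to the NOD1 promoter, had none, and the ubiquitin ligase gene ZNRF2 on the other side had 1 (70.5).

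The motif of 2 GAAA copies with 2 bases between them was found in the promoter windows of TLR3 and MYD88, once in each, and in no window of NOD1 or NOD2. Of the summits of NOD1 and NOD2, the window of NOD1 covers the one nearest the TSS and no other. It was in 38.7% of the 302 promoter windows of 300 bases that had a summit inside, against 3.57% of all 35116 RefSeq windows, a description for which no test was run. Matches on both strands were counted, matches may overlap, and no other motif was searched in the main count. In TLR3 the motif ran from chromosome 4 position 186069152 to 186069161, so that it straddled the RefSeq start, and the summit was 15.5 bp from its centre. In MYD88 it ran from chromosome 3 position 38138600 to 38138609, 61 to 52 bases before the RefSeq start, and the summit was 22.5 bp from its centre.

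Both distances lay within the range common in the list. Over the 98 summits that shared a promoter window with the motif, the median distance to the motif centre was 15.5 bp, with quartiles of 10.5 and 26.0 bp, and 88 were within 50 bp. A smaller distance than that of TLR3 was found for 46.9% of them, and than that of MYD88 for 66.3%. The scores of both genes were low in the same set. The median score of the 98 summits was 49.2, against 19.6 for the 157 summits in windows without the motif. Of the 98 summits, 5.10% scored lower than TLR3 and 21.4% scored lower than MYD88.

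Read from the GAAA side, TLR3 carries GAAAGTGAAA and MYD88 carries GAAAGCGAAA. These were the 2 most frequent forms nearest to a summit, with 25 and 16 of the 98 summits. The TLR3 form was thus at 25.5% of the summits, against 5.66% of all promoter windows with the motif. The MYD88 form was at 16.3% of the summits, against 2.79% of those windows. The 25 summits next to the TLR3 form scored between 13.0 and 297 with a median of 44.8, and 1 of them scored lower than TLR3. The 16 next to the MYD88 form scored between 15.0 and 321 with a median of 113, and 2 of them scored lower than MYD88.

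**Figure D5:**
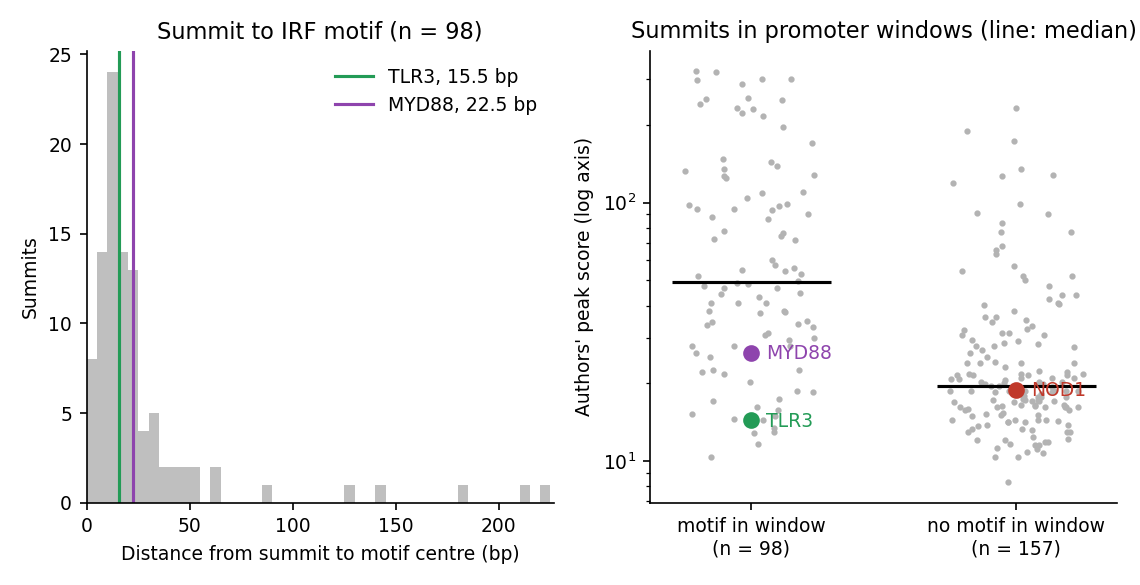
Left, number of summits by distance from the summit to the centre of the nearest motif in a shared promoter window (bp, n = 98), with TLR3 at 15.5 bp and MYD88 at 22.5 bp. Right, authors' peak score (log axis) of summits in windows with the motif (n = 98, median 49.2) and without it (n = 157, median 19.6), where TLR3 and MYD88 lie below the median of the first group and NOD1 (18.9) near that of the second.

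The windows differed in base composition as well. That of NOD1 was 74.7% G and C with 32 CG dinucleotides, and it held no GAAA on either strand. Such a lack was seen in 17 of the 302 windows with a summit (5.63%), against 13.7% of all promoter windows. The window of TLR3 was 40.3% G and C with 5 CG dinucleotides and held 10 copies of GAAA on both strands together, more than 98.9% of all windows. The window of MYD88 was 65.7% G and C and held 3 copies, the median of all windows. A match, or the lack of one, describes the letters of a window and not the binding of a factor.

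Of 75 genes listed for NOD and Toll-like receptor signalling, 10 had a summit within 10 kb of the TSS (13.3%). Of the 71 listed genes other than the 4, 6 had one (8.45%). Among all protein-coding genes the share was 3.36%. The lists were chosen with earlier results of these data known, so no excess can be read from these shares. Of 22 receptors, NOD1, NOD2 and TLR3 had a summit within 10 kb, or 1 of 10 Toll-like and 2 of 12 NOD-like receptor genes. These 3 were taken because the list names them, so these counts are a description. Of the other 19 receptors 0 had one within 10 kb, and 19 genes are too few to set against 3.36%. TLR10 (18.7, at 21168 bp), TLR4 (36.2, at 78963 bp) and NLRC5, the transactivator of MHC class I genes (101, at -27536 bp), had a summit only farther away. None of the 7 receptor helpers, such as CD14 and UNC93B1, had a summit at any distance. The share of all protein-coding genes with one was 6.38%, and 7 genes are too few to set against it.

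Downstream of the receptors, adaptors held 2 of 12 genes with a summit within 10 kb. These were MYD88, taken because the list names it, and 1 of the other 11, IKBKG, the regulatory subunit of the NF-kB kinase (12.1). IKBKG is known to have a closely related pseudogene, and whether reads from it reached this summit was not tested. TICAM1, the TLR3 adaptor, had none. Of 11 kinases RIPK1 had a pair of summits, 7971 bp (81.7) and 8539 bp (22.6) upstream of the authors' TSS, of which the one with the lower score lay in RefSeq promoter windows of RIPK1, and RIPK2, the partner of NOD1 and NOD2, had one only in an intron at 24668 bp (27.7). The ubiquitin enzymes and inhibitors held 2 of 12, RBCK1 (253), part of the linear ubiquitin ligase, and BIRC3 (18.7), a ubiquitin ligase of NOD signalling. The transcription factors and their inhibitors held 2 of 11, IRF7 (45.7) and IRF5 (44.0).

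Promoter windows were matched for 58 of the 75 genes. A gene had between 1 and 4 windows. The motif was in a window of 6 of the 58, against 4.16% of the 15813 protein-coding genes with a window. A summit was in a window of 6, against 1.49% of those genes. The motif and a summit were both found for 4, namely TLR3, MYD88, RIPK1 and RBCK1, against 0.563%. TLR3, MYD88 and NOD1 were chosen because the list names them, and the other listed genes with earlier results of these data known. These counts are therefore a description. RNF31 and RELA had the motif without a summit in a window, and NOD1 and IRF5 a summit without the motif.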

How the data were processed

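IRF1 ChIP-seq was done on NB4 cells, 1 library per group. The submitters' processing notes name Bowtie2 2.2.9, MACS 1.4.2 and hg38. Annotation of the summits used annotatePeaks.pl with hg38, per the file headers. The score deposited by the authors has no stated scale and served to rank and describe summits within the list. Summit scores differ in kind between MACS versions, and which kind these are is not stated. Which background and threshold the peak calling used is not given in the sources used here. With the DMSO library as background, sites bound alike in both would be missing. Depth is unknown.

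Summits were matched by Entrez identifier to RefSeq genes of GRCh38.p14. The background is protein-coding genes of the autosomes and X. Promoter windows of all 4 genes were matched by symbol. No test was run: counts, ranks and shares describe 1 list. The members, the pathway lists and the motif were chosen with earlier results of these data known, and the spacer, L1MB2 and base composition counts after their values were seen. Named were the 4 genes, their neighbours, listed genes with summits and the genes next in score. Listed genes with a summit beyond 10 kb, with the motif alone, or without a summit (TICAM1, CD14, UNC93B1) were named after their values were seen. Counting steps were tested on simulated data. Alternatives were other TSS distances, a stricter score, merged summits, gene spans and other motifs. Computations used Python 3.11.15 and pandas 2.3.3.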

Additional observations from a re-analysis of the deposited data

How the results depend on the processing

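No paired analysis was possible because the list comes from a single library, and for the same reason no replicate was left out. Of 24 alternatives tried, 21 left their value within 1.5 times (counts) or within the 95% Wilson interval (percentiles). That interval served only as a cut-off and measures no spread between libraries. Some of the 21 could not move. The members at any distance are all 4 by choice, and no member summits lay under 200 bp apart to be merged. Other changes fell inside the limit, as when the NOD1 groups went from 2 at 1 kb to 3 at 200 bp. The NOD1 intronic score exceeded 91.2% of all summits and 89.0% of those within 10 kb of a TSS. The TLR3 score exceeded 11.2% of all summits and 9.82% of those outside the chromosome 21 block. With a spacer of 3 bases between the GAAA copies 0 of the 4 genes had a match, against 2 with a spacer of 2 bases; the cause was not tested, and 2.86% of all windows held the longer form. With 1 mismatch allowed 2 genes had a match, but so had 33.0% of windows. The 6 summits became 4 at or above the median score. Members with a near summit numbered 3 within 1 kb, where NOD2 was missing, and 3 with the stricter score, where TLR3 was missing. Of the 75 listed pathway genes, 10 were counted at the main setting of 10 kb. The counts were 7 at 1 kb, 9 at 5 kb and 14 at any distance. They were 7 with the stricter score and 13 with extended gene spans. The shares of all protein-coding genes were, in the same order, 3.36%, 2.03%, 2.82%, 6.38%, 1.90% and 7.45%. Each count includes members, which were chosen from the list of summits, so no excess can be read from these numbers. Without the members, 6 of 71 listed genes remained at 10 kb, and no such count is given for the other settings. These 71 were also listed with earlier results of these data known, so no excess can be read from them. Depth is unknown, so binding below the calling threshold could not be seen.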
